A study of Mus musculus with 3 samples.

Results

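Cycling cells were picked out of whole mouse prostate by the RNA of 5 genes of the dividing cell, Mki67, Top2a, Birc5, Ube2c and Cenpf. A droplet barcode counted as cycling when it held at least 500 genes, at most 15% of unique molecular identifiers (UMIs, counted RNA molecules) from mitochondrial genes, and at least 4 UMIs of the 5 genes together with at least 2 of the genes detected. This rule found 104 of 25288 kept barcodes, which were 6 of 9983 in the Srd5a2 knockout library, with 29 of 4718 in Srd5a2 heterozygote library 1 and 69 of 10587 in Srd5a2 heterozygote library 2. The libraries were made with 10x Genomics droplets from fresh prostates of C57BL6 mice aged 12 to 15 weeks, with no treatment, and differed by label in genotype alone. Srd5a2 encodes the steroid reductase that turns testosterone into dihydrotestosterone, and the heterozygotes carry 1 altered allele. There was 1 knockout library against 2 heterozygote libraries. The labels state neither how many animals each library holds nor which part of Srd5a2 was altered. All tissue spent 2 h at 37 °C with collagenase and added dihydrotestosterone, among other additions.

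A cell that divides copies its DNA in S phase with the help of the MCM helicase, PCNA and the enzymes of nucleotide supply, and then enters G2 and mitosis under CDK1 and its cyclins. Many G2 and mitosis genes are held silent in resting cells by a repressor complex and are switched on together late in the cycle. The adult prostate renews slowly, and its luminal cells, which make the secretion, depend on androgen for their upkeep.

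The 5 genes mark different steps. Mki67 encodes the Ki-67 protein that coats mitotic chromosomes and lies on chromosome 7 (mm10, 135689784 to 135716361). Top2a encodes the topoisomerase that untangles replicated DNA and lies on chromosome 11 (98992943 to 99024189). Birc5 encodes survivin, a subunit of the chromosomal passenger complex, and lies on chromosome 11 (117849251 to 117855743). Ube2c encodes the ubiquitin-conjugating enzyme of the anaphase-promoting complex and lies on chromosome 2 (164769898 to 164778822). Cenpf encodes a protein of the outer kinetochore and lies on chromosome 1 (189640606 to 189688086). These positions span the whole genes in GENCODE vM21.

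Their promoters are shown because the 5 genes were used as one set. RefSeq promoter windows (GRCm38.p6, 250 bases before to 50 after the gene start) were searched on both strands for TTTGAA, the core of the cell cycle genes homology region to which the repressor complex binds, and for CCAAT, the box read by the factor NF-Y. The stretches below run from 150 bases before to 20 bases after the start, 5′ to 3′ on the gene's strand, at chr7:135716360-135716529 (minus), chr11:99024170-99024339 (minus), chr2:164769779-164769948 (plus), chr1:189688067-189688236 (minus) and chr11:117849087-117849256 (plus). Capitals mark TTTGAA or CCAAT or the reverse complement of either.
Mki67: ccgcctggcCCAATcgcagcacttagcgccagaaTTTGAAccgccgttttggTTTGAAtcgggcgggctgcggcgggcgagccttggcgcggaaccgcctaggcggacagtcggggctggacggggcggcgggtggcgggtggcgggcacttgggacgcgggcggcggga
Top2a: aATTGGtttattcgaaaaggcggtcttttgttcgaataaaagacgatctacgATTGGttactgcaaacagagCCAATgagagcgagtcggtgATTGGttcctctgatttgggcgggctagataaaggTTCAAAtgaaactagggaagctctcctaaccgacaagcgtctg
Ube2c: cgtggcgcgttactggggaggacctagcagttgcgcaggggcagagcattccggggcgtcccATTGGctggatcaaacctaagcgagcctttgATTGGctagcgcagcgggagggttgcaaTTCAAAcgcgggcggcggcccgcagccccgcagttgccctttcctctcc
Cenpf: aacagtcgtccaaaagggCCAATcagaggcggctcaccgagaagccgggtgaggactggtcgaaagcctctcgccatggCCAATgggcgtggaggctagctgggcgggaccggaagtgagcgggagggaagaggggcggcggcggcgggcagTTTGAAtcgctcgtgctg
Birc5: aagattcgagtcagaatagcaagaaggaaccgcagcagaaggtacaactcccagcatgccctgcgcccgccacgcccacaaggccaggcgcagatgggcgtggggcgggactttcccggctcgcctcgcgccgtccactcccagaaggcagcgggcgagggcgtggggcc
TTTGAA was present in 4 of the 5 windows, with 2 matches each for Mki67 and Top2a and 1 each for Ube2c and Cenpf, and Birc5 had none. The same 4 held CCAAT, with 6 matches each for Top2a and Ube2c, 3 for Mki67 and 2 for Cenpf. One pair of CCAAT matches in the Ube2c window, upstream of the stretch shown, overlapped each other. Of 32851 windows in the whole table, 17.9% held TTTGAA, 37.4% held CCAAT and 6.95% held both. Of the 70 further G2 and mitosis genes described below, 56 had a window, and 34 of these (60.7%) held TTTGAA, 40 (71.4%) CCAAT and 30 (53.6%) both. Only 29 of 39 S phase genes had a window, under the minimum of 80% set for such a check, which the G2 and mitosis list just met, so the check is void for the S phase list. A match describes letters only and is no measure of binding.

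Kept barcodes had a median of 4512 UMIs in the knockout, 7034.5 in heterozygote 1 and 5387 in heterozygote 2, from totals of 129015041, 47601747 and 100801564 deposited UMIs in the same order of libraries. Cycling barcodes were deeper, with medians of 9424, 9353 and 16895 UMIs, against 4510, 7012 and 5311.5 UMIs in the other kept barcodes. Srd5a2 itself had 16 UMIs in the knockout (0.129 CPM, a gene's UMIs over all UMIs of the group, times 1000000), while heterozygote 1 held 144 UMIs (3.1 CPM) and heterozygote 2 held 177 (1.86 CPM). Pairs of libraries shared 15 to 57 cell barcodes, and no cycling barcode was cycling in both libraries of a pair. Barcodes scored as likely doublets were kept, as the rule sets no doublet filter. They made up 1 of 6 cycling barcodes in the knockout, and 0 of 29 and 12 of 69 in heterozygotes 1 and 2, against 8.45%, 4.54% and 8.68% of the non-cycling barcodes.

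In the cycling barcodes Mki67 was detected in 92 of 104 and Top2a in 93, while Cenpf was found in 70, Birc5 in 71 and Ube2c in 69. All 5 genes were present in 35 barcodes and only 2 in 14. In the 6 knockout barcodes Mki67 and Top2a had 17 and 18 UMIs and Birc5, Ube2c and Cenpf together fewer, at 4, 1 and 5 UMIs. No knockout barcode held all 5 genes, against 12 of 29 in heterozygote 1 and 23 of 69 in heterozygote 2. These counts follow from the rule and are given as a description.

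The cycling label was set against 2 lists the rule did not use, 39 genes of S phase and DNA replication (Pcna, the Mcm genes, Rrm2, Tyms) and 70 genes of G2 and mitosis (Cdk1, Ccnb1, Cdc20, Plk1). Both lists together gave a median of 70.1 UMIs per 10000 in cycling barcodes, against 9.15 in barcodes with none of the 5 genes. A barcode was called supported when the 2 lists lay above the 99th percentile of non-cycling barcodes of the same library and lineage. This held for all 6 knockout barcodes, for 24 of 29 in heterozygote 1 and for 51 of 69 in heterozygote 2, 81 of 104 in all. The bar differed by library and lineage, so these counts do not rank the libraries. The knockout seminal vesicle-like barcode passed at 19.6 per 10000 against a bar of 17.2. A heterozygote 1 proximal luminal-like barcode with 28 UMIs of the 5 genes failed at 25.3 against 38.2. Support followed the count of the 5 genes, being met by 10 of 19 barcodes with 4 or 5 UMIs, 18 of 27 with 6 to 9 UMIs and 53 of 58 with 10 or more UMIs. Just outside the rule, 44 barcodes with 3 UMIs had a median of 10.4 list UMIs per 10000, close to the level of barcodes with none of the genes. The 19 barcodes just inside it, with 4 or 5 UMIs, had a median of 30.9. A further 13 barcodes had 4 or more UMIs of a single gene, 7 of Top2a and 6 of Mki67, and a list median of 11.7 per 10000.

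**Figure D1:**
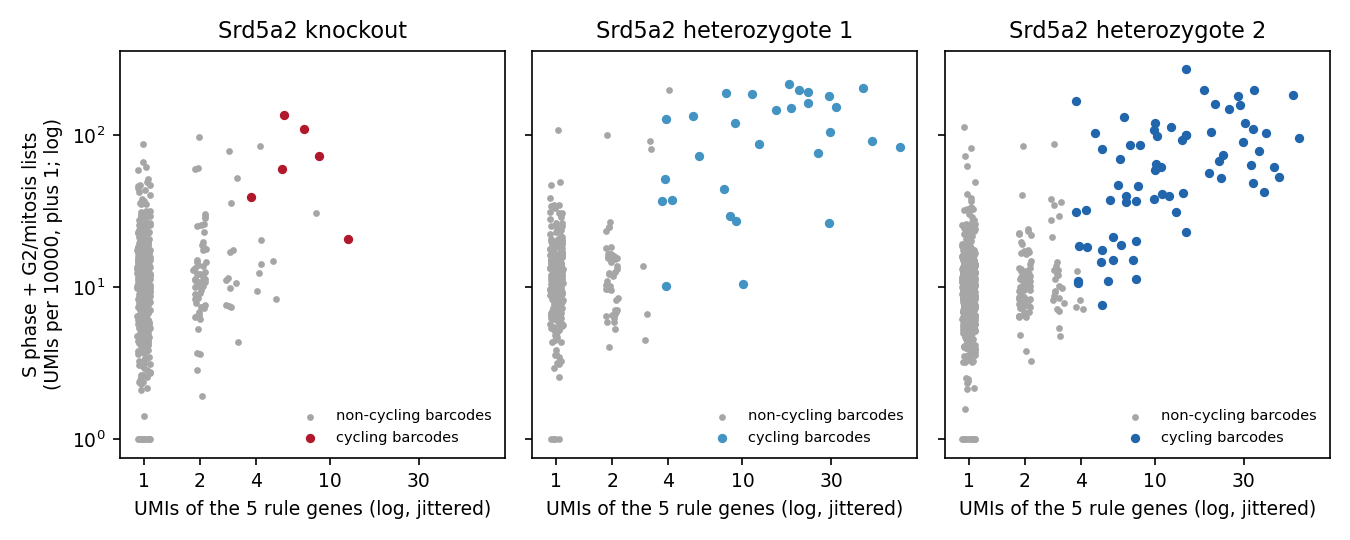
UMIs of the 5 rule genes per barcode (log axis, jittered) against UMIs of the S phase and G2/mitosis lists per 10000 (plus 1, log axis), for kept barcodes with at least 1 UMI of the 5 genes, 1 panel per library. Coloured points are cycling barcodes, 6 in the knockout, 29 in heterozygote 1 and 69 in heterozygote 2, and most lie above the grey non-cycling points, whose level stays flat from 1 to 3 UMIs.

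Cells were also counted by the 2 lists, whether or not a barcode met the 5-gene rule, and the knockout stood lowest. The cut-off was the median of the cycling barcodes, most of them from the heterozygotes, so this count is not independent of the rule. Barcodes at or above the cycling median of 70.1 list UMIs per 10000 numbered 7 of 9983 (0.0701%) for the knockout library. The count was 25 of 4718 (0.530%) for heterozygote 1, and heterozygote 2 gave 39 of 10587 (0.368%). Of these, 4, 5 and 10 had not met the 5-gene rule.

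Both lists were higher in cycling barcodes. The S phase list had a median of 13.2 UMIs per 10000, against 1.97 in barcodes with none of the 5 genes, and the G2 and mitosis list had 49.7, against 6.63. The S phase list supplied a median of 21.2% of the UMIs of both lists in cycling barcodes, from 2.90% to 62.7%, against a median of 23.5% in the 21724 barcodes with none of the 5 genes and at least 1 list UMI. This share depends on the size and content of the lists and gives no phase to the cycling barcodes. The median S phase share was 31.1% in the 6 knockout cycling barcodes, 21.1% in heterozygote 1 and 20.9% in heterozygote 2, against 23.1%, 23.1% and 25% in barcodes of the same libraries with none of the 5 genes. By lineage it was 17.8% in 52 secretory luminal-like barcodes, 25.7% in 13 proximal luminal-like barcodes and 34.7% in 5 T or NK-like barcodes. The T or NK-like barcodes ranged from 19.0% to 43.9%, inside the secretory luminal-like range of 4.79% to 62.7%, so the groups overlapped. The 2 smooth muscle-like barcodes stood at 6.09% and 11.5%.

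**Figure D2:**
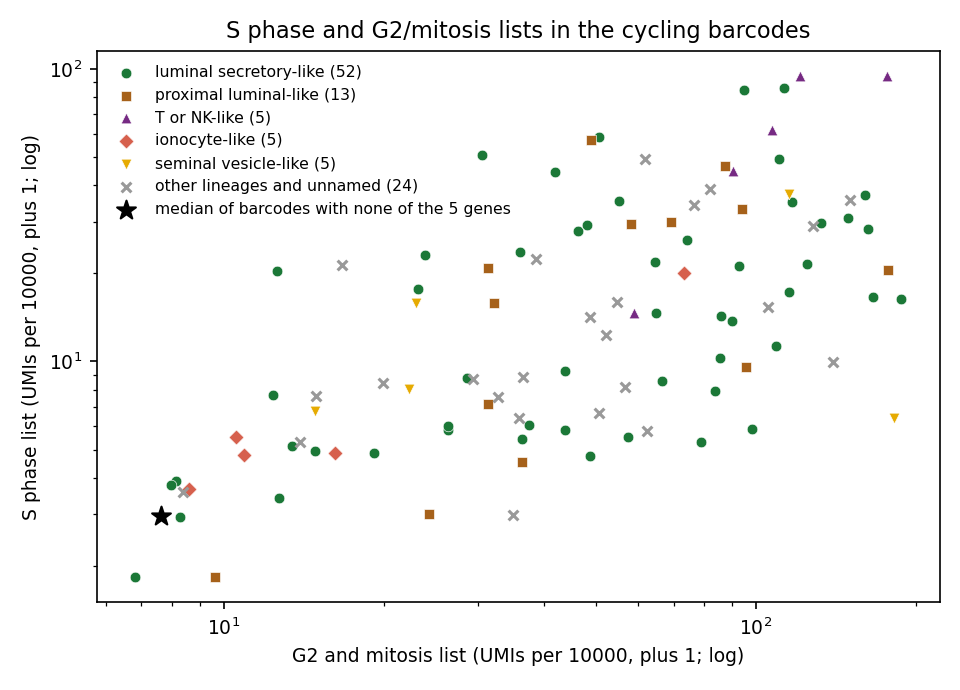
UMIs per 10000 of the G2 and mitosis list against those of the S phase list (each plus 1, log axes) in the 104 cycling barcodes, marked by lineage. The star marks the median of barcodes with none of the 5 genes, 6.63 and 1.97 per 10000, and most cycling barcodes lie above it on both axes.

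Lineages were set by the non-cycling barcodes alone, clustered without cell cycle genes and named by marker genes, and each cycling barcode took the lineage most common among its 15 nearest non-cycling barcodes. Secretory luminal-like barcodes were the largest cycling group, with 52 of 104. They made up none of the 6 cycling barcodes in the knockout, against 13.5% of its non-cycling ones, 41.4% against 45.0% in heterozygote 1 and 58.0% against 39.9% in heterozygote 2, so the heterozygotes went opposite ways. Proximal luminal-like barcodes gave 13, which were 24.1% of cycling against 17.1% of non-cycling barcodes in heterozygote 1 and 8.70% against 8.71% in heterozygote 2. Basal-like barcodes gave 3, with 1 in each library, and made up 13.0% to 14.0% of the non-cycling barcodes. That of heterozygote 2 had only 6 of 15 basal-like neighbours and was scored as a likely doublet. T or NK-like, ionocyte-like and seminal vesicle-like barcodes gave 5 each, smooth muscle-like, endothelial-like and macrophage-like barcodes 2 each, and 13 lay in clusters without a name. The remaining 2 lay nearest to the fibroblast-like and glia-like clusters, but their markers went partly against those names. The first, with 8 of 15 neighbours there, held 140 UMIs per 10000 of smooth muscle markers and 103 of fibroblast markers. The second, scored as a likely doublet, held 2.82 of glia markers, against a median of 30.7 in non-cycling glia-like barcodes, and 80.2 of epithelial markers. Of the 2 smooth muscle-like, 2 endothelial-like and 2 macrophage-like barcodes 1 each was also scored as a likely doublet. So were 1 of the 5 ionocyte-like barcodes and 4 of the 13 in unnamed clusters.

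The secretory luminal-like cycling barcodes came from the heterozygotes. None of 1346 such barcodes was cycling in the knockout. In heterozygote 1 the count was 12 of 2122 (0.566%), and in heterozygote 2 it was 40 of 4238 (0.944%). The exact Clopper-Pearson 95% interval reached from 0% to 0.274% in the knockout. It reached from 0.293% to 0.986% in heterozygote 1 and from 0.675% to 1.28% in heterozygote 2. Under this rule the knockout interval did not meet those of the heterozygotes, but the gap to heterozygote 1 was narrow. With 3 or more UMIs the shares were 0.149% in the knockout, 0.660% in heterozygote 1 and 1.06% in heterozygote 2. With 6 or more they were 0%, 0.518% and 0.755% in that order. Under both of these other rules the exact intervals of the knockout and heterozygote 1 overlap, so the narrow gap to heterozygote 1 was lost. The simpler limit of 3 counts over the total, a one-sided bound, puts the share that a count of 0 allows at 0.223%, below the end of the wider interval above. Intervals and limits cover counting error only, and with 1 library against 2 an exact permutation test of libraries cannot go below p = 0.33. Knockout secretory luminal-like barcodes were no shallower, with a median of 12839 UMIs, against 9929 and 10317 in heterozygotes 1 and 2. By the lists, at the cut-off taken from the cycling barcodes, 0 knockout, 12 heterozygote 1 and 22 heterozygote 2 barcodes of this lineage reached the cycling median.

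**Figure D3:**
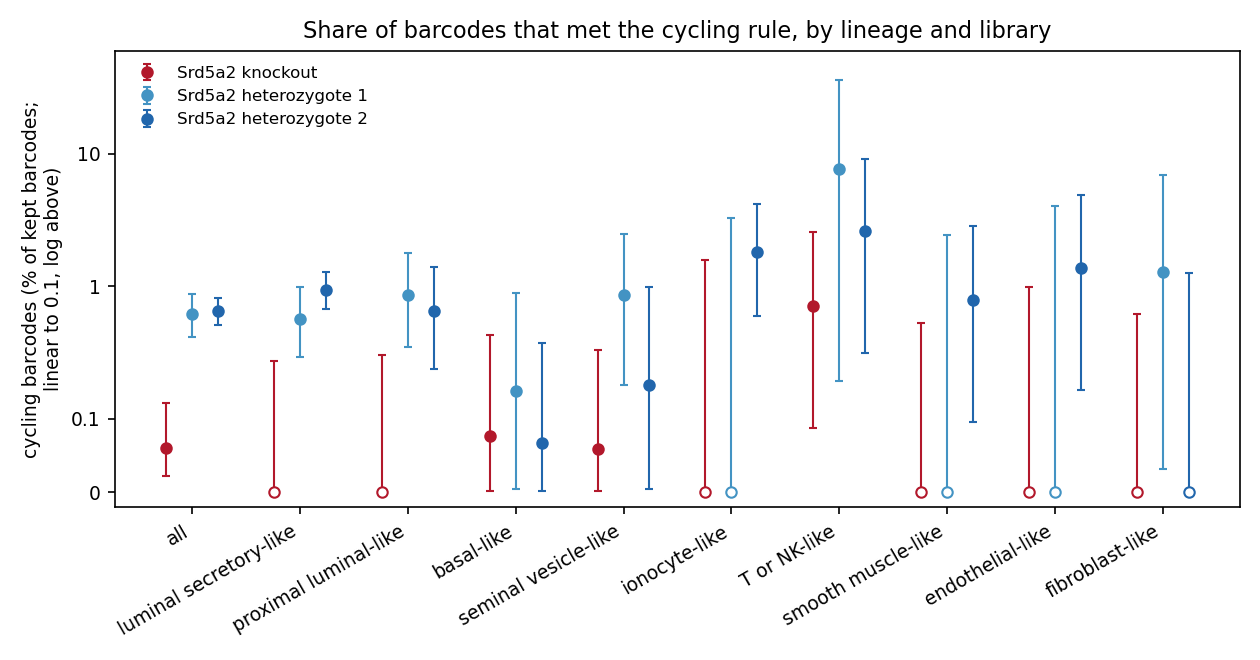
Share of kept barcodes that met the cycling rule, in percent (linear up to 0.1, log above), by lineage, for the knockout (red), heterozygote 1 (light blue) and heterozygote 2 (dark blue). Bars are exact 95% intervals of counting error and open circles mark a count of 0. In secretory luminal-like barcodes the knockout interval ends at 0.274% and those of the heterozygotes begin at 0.293% and 0.675%.

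Proximal luminal-like barcodes showed 0 cycling of 1223 in the knockout, while 7 of 810 cycled in heterozygote 1 (0.864%) and 6 of 922 in heterozygote 2 (0.651%). The clusters behind this lineage differed between the libraries. The cluster led by Tmem171, with 4 basal markers beside 5 proximal luminal ones, held 650 of the knockout barcodes, 105 in heterozygote 1 and 151 in heterozygote 2, and no cycling barcode. The cluster led by Wfdc2 and Cxcl17 had 5 secretory luminal markers beside 5 proximal luminal ones. It held 0, 11 and 346 barcodes, with 2 cycling in heterozygote 2. The knockout interval ended at 0.301%, which overlaps that of heterozygote 2, from 0.239%. Basal-like barcodes cycled at 1 of 1295 in the knockout, and 1 of 619 and 1 of 1477 in heterozygotes 1 and 2. Their intervals overlap widely. T or NK-like barcodes gave 2 of 279 in the knockout (0.717%), then 1 of 13 in heterozygote 1 and 2 of 77 in heterozygote 2 (2.60%), and seminal vesicle-like barcodes 1 of 1675, 3 of 347 and 1 of 557. No ionocyte-like barcode cycled among 231 of the knockout or 110 of heterozygote 1, and 5 of 274 did in heterozygote 2. The ionocyte-like intervals of the knockout and heterozygote 2 overlap, and only 1 of the 5 barcodes was supported by the S phase and G2 lists.

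Within the secretory luminal-like lineage, cycling barcodes were spread over 5 of 6 clusters. The cluster led by Banf2 gave 3 of 547 in heterozygote 1 and 11 of 664 in heterozygote 2, and the cluster led by C1s2 and Pnliprp1 gave 0 of 296 and 13 of 1036. The cluster with Ms4a5 and Tcaf3 gave 3 of 661 and 7 of 888, and that led by Sbp and Spink5, secreted proteins of the gland, gave 6 of 302 and 6 of 743. The Msmb and Defb50 cluster gave 0 of 246 and 3 of 463. The cluster led by Col6a6 and Gm26917 gave 0 of 70 and 0 of 444. The Sbp and Spink5 cluster thus held 6 of the 12 cycling barcodes and 14.0% of the non-cycling ones in heterozygote 1, and 15.0% of the cycling and 17.6% of the non-cycling ones in heterozygote 2. In the knockout all 6 clusters stood at 0, of 52 to 447 barcodes each. In the proximal lineage the cluster led by Sprr2f had 4 proximal luminal markers and 2 seminal vesicle ones. It gave 0 of 432 in the knockout, and 4 of 347 and 2 of 150 in heterozygotes 1 and 2. The Psca and Krt4 cluster, which carries the markers of the urethra-near luminal cell, gave 0 of 131, 3 of 316 and 2 of 240.

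The 6 knockout cycling barcodes were 2 T or NK-like, 1 basal-like, 1 seminal vesicle-like and 2 in unnamed clusters. The T or NK-like barcodes, with 9 and 6 UMIs of the 5 genes, lay in a cluster led by the granzymes Gzmb and Gzma. The basal-like barcode had 6 UMIs over 4 of the genes, and the seminal vesicle-like barcode had 13 UMIs among 64195 UMIs in all. One unnamed cluster, led by Ccr7, Csf2rb and Napsa, which are genes of antigen-presenting cells, held 1 cycling of 181 barcodes in the knockout, and 2 of 27 and 2 of 44 in heterozygotes 1 and 2. The other, led by Sprr1a, a gene of the cornified envelope, held 1 of 79, 0 of 68 and 3 of 323, and its knockout barcode was scored as a likely doublet. No immune or stromal lineage showed a share that stood apart between the libraries beyond its interval.

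Marker levels were read in the cycling barcodes of each lineage. All 52 secretory luminal-like barcodes held UMIs of at least 3 of 6 epithelial markers and 3 of 11 secretory luminal markers, but so did 84.3% and 97.5% of non-cycling barcodes of all lineages, so presence says little. Their secretory luminal markers had a median of 470 UMIs per 10000, with the lowest at 291, against 569 in non-cycling secretory luminal-like barcodes and 136 over all non-cycling barcodes. Pbsn (probasin, an androgen-driven secretory protein) and Krt8 (a luminal keratin) were present in every one of them, while Krt5, a basal keratin, was in none, against 2.61% and 2.81% of non-cycling barcodes in heterozygotes 1 and 2, a difference not detectable with 52 barcodes. The 3 basal-like barcodes all held Krt5 and Krt14, and none held Trp63, the basal transcription factor. Of the 5 T or NK-like barcodes 4 held at least 3 of 8 T or NK markers, and all 5 also held at least 3 secretory luminal and 3 seminal vesicle markers, as did 91.8% and 99.5% of the non-cycling T or NK-like barcodes. The 5 ionocyte-like barcodes had a median of 3.01 UMIs per 10000 of 6 ionocyte markers, against 10.2 in non-cycling ionocyte-like barcodes, and 3 of them held at least 3 of the markers. All 5 held Foxi1, the ionocyte transcription factor. They had a median of 2663 UMIs per 10000 of seminal vesicle markers, against 1092 in non-cycling ionocyte-like barcodes. These lower ionocyte and higher seminal vesicle levels go partly against the ionocyte name. Where this secretory RNA came from, and its part in the results, was not tested.

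The level of the 5 genes was then read over all barcodes of a lineage. These are the genes of the rule, but here every barcode of a lineage counted, whether or not it met the rule. Over all kept barcodes the 5 genes made up 5.31 CPM in the knockout, against 20.3 and 21.7 in heterozygotes 1 and 2. In secretory luminal-like barcodes they made up 10.3, 25.1 and 26.5 CPM. Cycling barcodes, 12 and 40 in number, carried 52.2% of these UMIs in heterozygote 1 and 57.8% in heterozygote 2.

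In secretory luminal-like barcodes 4 of the 5 genes were lower in the knockout and Top2a was not called. Cenpf had 3 UMIs in the knockout, against 91 and 160 in heterozygotes 1 and 2. Its log2 fold change was -4.46 ± 0.68 (SE; edgeR quasi-likelihood test, Benjamini-Hochberg adjusted p = 2.21e-08). Mki67 had 8 UMIs in the knockout, against 86 and 189 in the heterozygotes (-3.15 ± 0.56, edgeR adjusted p = 5.17e-06). Birc5 had 8, against 84 and 147 (-2.95 ± 0.58, edgeR adjusted p = 5.53e-05). Ube2c had 13, against 76 and 235 (-2.56 ± 0.51, edgeR adjusted p = 7.61e-05). All 4 lay far below both heterozygotes. Lower calls made up 1.19% of the 16366 genes tested in this lineage, and calls in either direction 1.99%. In a summed level, fewer cells of a kind and less RNA per cell cannot be told apart. In the heterozygotes most UMIs of these 4 genes lay in cycling barcodes, which the knockout lacked in this lineage. Their levels are therefore not separate evidence from the counts of cycling barcodes. The 4 calls held with median-ratio scaling, DESeq2, no count filter and doublets left out. With the cycling barcodes left out, which removes cells picked on these genes in the heterozygotes alone, 0 of 5 were called. Seminal vesicle products took 1.71% of UMIs in knockout secretory luminal-like barcodes, against 0.199% and 0.351% in the non-cycling ones of heterozygotes 1 and 2, and their part in the result was not tested.

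Top2a was found largely outside the cycling barcodes. It had 168 UMIs in the knockout, 282 in heterozygote 1 and 554 in heterozygote 2, that is 8.62, 11.4 and 11.4 CPM, with a log2 fold change of -0.40 ± 0.31 (edgeR adjusted p = 0.965). Non-cycling secretory luminal-like barcodes held 8.62, 8.63 and 7.81 Top2a CPM in the knockout, heterozygote 1 and heterozygote 2, nearly the same in all 3 libraries. Mki67 in the same barcodes held 0.411, 0.778 and 0.588 CPM. In non-cycling proximal luminal-like barcodes Top2a stood at 4.08, 2.66 and 3.28 CPM, and in seminal vesicle-like barcodes at 0.637, 0.630 and 1.44. Of the Top2a UMIs of secretory luminal-like barcodes 0% lay in cycling barcodes in the knockout, 25.2% in heterozygote 1 and 32.9% in heterozygote 2, against 0%, 91.2% and 85.6% for Cenpf.

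**Figure D4:**
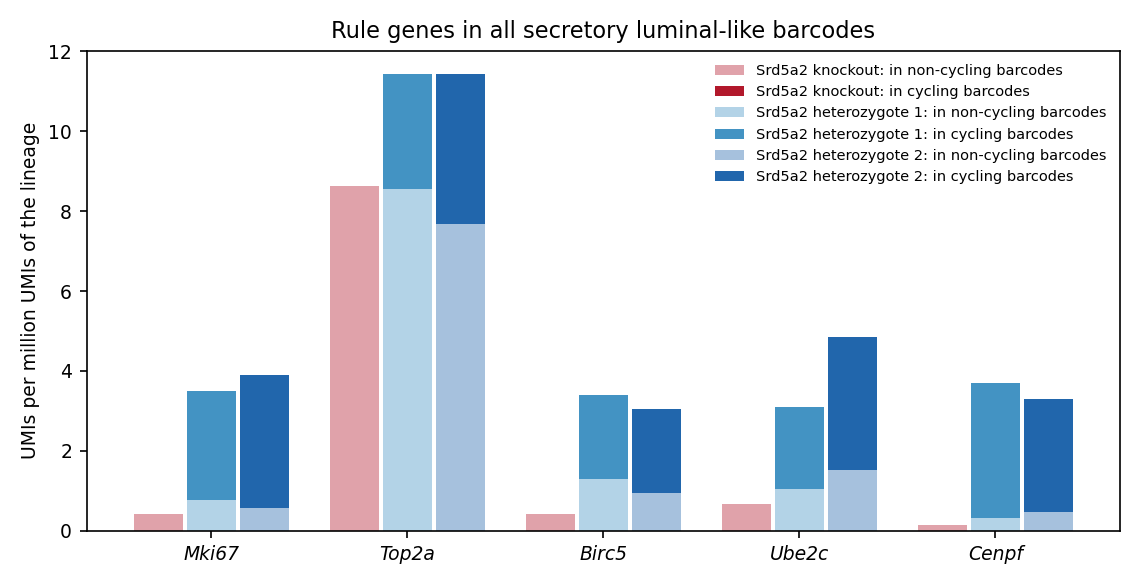
CPM of each rule gene over all secretory luminal-like barcodes, in the knockout (red), heterozygote 1 (light blue) and heterozygote 2 (dark blue), split into UMIs from non-cycling (pale) and cycling barcodes (solid). The pale part of Top2a is 7.81 to 8.63 CPM of non-cycling UMIs in every library, and the solid parts are seen in the heterozygotes alone.

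Elsewhere few rule genes were called. In proximal luminal-like barcodes Cenpf had 0 UMIs in the knockout, against 20 and 17 in the heterozygotes (edgeR adjusted p = 0.0280), which is at least 10.4-fold lower against a floor of 3 UMIs in the knockout library. This call held with median-ratio scaling, no count filter and doublets left out, and DESeq2 gave no adjusted p. Of these Cenpf UMIs 19 in heterozygote 1 and 14 in heterozygote 2 lay in cycling barcodes. Only 1 and 3 lay in the other barcodes, so the difference follows the cycling barcodes picked on this gene. Lower calls made up 2.27% and all calls 5.17% of the genes tested in that lineage. Ube2c had 2 UMIs in the knockout, 26 in heterozygote 1 and 13 in heterozygote 2 (edgeR adjusted p = 0.0871), and Mki67, Top2a and Birc5 were not called. In seminal vesicle-like barcodes Cenpf had 1 UMI in the knockout, against 7 and 11 (edgeR adjusted p = 0.0315), where lower calls made up 4.67% and all calls 10.7% of genes. The libraries filled this class from different clusters, since that led by Sva held 1137 of 1675 barcodes in the knockout but 11 and 16 in heterozygotes 1 and 2, and that led by Pate8 held 538, 336 and 541. This call was lost with doublets left out (edgeR adjusted p = 0.0543), and DESeq2 gave no adjusted p. In basal-like barcodes Mki67 had 7, 8 and 10 UMIs and Top2a 22, 14 and 11. No rule gene was called there, and edgeR called 0 of 11948 genes (0.00%) in that lineage, with 665 at an unadjusted p under 0.05 and, by DESeq2, 18 called higher and 19 lower.

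The wider cell cycle lists in secretory luminal-like barcodes were read the same way. Calls in these lists, here and in the next paragraph, stand against the share of all genes called. That share was 1.19% lower and 1.99% either way in secretory luminal-like barcodes, and 2.27% and 5.17% in proximal luminal-like barcodes. At these shares lists of this size would hold few calls, so a list with no call or a single one gives no result. Of 63 G2 and mitosis genes tested 9 were lower in the knockout and 1 higher, and 47 lay below both heterozygotes, against 37.5% of all genes. Their median log2 fold change was -0.67, against -0.02 for all genes. Cdc20, the activator of the anaphase-promoting complex, had 6 UMIs in the knockout, against 49 and 82 in heterozygotes 1 and 2 (-2.55 ± 0.68, edgeR adjusted p = 0.0123). Cdk1, the mitotic kinase, had 12, against 59 and 124 (-1.99 ± 0.56, edgeR adjusted p = 0.0241). Hmmr, a spindle protein, had 3, against 41 and 58 (edgeR adjusted p = 0.00816). Cdca3, Knstrn, Pbk and Racgap1 were also lower, and so were Nusap1 (-1.25) and Spc25 (-1.24). With the cycling barcodes left out, 1 gene of the list was still called lower. That gene was Spc25, a kinetochore subunit, at -1.18 (edgeR adjusted p = 0.0325). Mad2l1, a checkpoint protein, went the other way, with 249 UMIs in the knockout, against 114 and 246 in heterozygotes 1 and 2, or 12.8, 4.63 and 5.08 CPM (1.40 ± 0.31, edgeR adjusted p = 0.000599). It stayed higher without the cycling barcodes, at 1.58.

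The S phase list showed no edgeR call, with 0 of 37 genes in either direction (2 at an unadjusted p under 0.05), a median log2 fold change of -0.32 and 24 genes below both heterozygotes. Among 23 genes of D cyclins, CDK inhibitors and pocket proteins 1 was called, the G1 kinase Cdk6, with 115 UMIs in the knockout, against 348 and 910 in the heterozygotes (5.90, 14.1 and 18.8 CPM; -1.47 ± 0.33, edgeR adjusted p = 0.000928). Cdk6 was as low without the cycling barcodes, at -1.48. The 10 histone genes tested did not move one way, with calls in both directions and a median log2 fold change of 0.18. Of them 3 lay below both heterozygotes and 4 above both. The replication-dependent histone gene Hist1h2ap had 8 UMIs in the knockout, against 65 and 138 (-2.72 ± 0.59, edgeR adjusted p = 0.000598), and it was not called without the cycling barcodes. In proximal luminal-like barcodes Hist1h2ap had 4 UMIs in the knockout, against 54 and 67 in the heterozygotes (-4.28 ± 0.63, edgeR adjusted p = 0.00213). Cdc6, which loads the replicative helicase, was higher there, with 87 UMIs in the knockout, against 13 and 18 (2.07 ± 0.47). The 33 S phase genes tested in that lineage had a median log2 fold change of 0.04, with 10 below both heterozygotes and 11 above both. Cdc6 therefore does not stand for the list.

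Cycling and non-cycling barcodes were compared within the secretory luminal-like lineage, the only one with at least 10 cycling barcodes in 2 libraries. UMIs of 12 cycling barcodes of heterozygote 1 and 40 of heterozygote 2 were summed and paired with the non-cycling barcodes of the same library. No knockout library entered, and no lineage held 10 cycling barcodes in every library, so the genotypes were not compared within cycling cells. Genes that vary with the cell cycle differ by the choice of barcodes, so the cell cycle lists are described without a test. The G2 and mitosis list had a median log2 difference of 5.55, and 66 of 69 genes were positive in both libraries. The S phase list had a median of 3.29, and 36 of 38 were positive in both. Over all 13671 genes the median was -0.09.

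The size of these differences varied by gene. Cdc20 stood at 199.5 and 77.6 CPM in the cycling barcodes of heterozygotes 1 and 2, against 0.368 and 0.420 in the non-cycling. Cdk1 stood at 219 and 116, against 0.614 and 0.651. Stmn1, a microtubule-destabilizing protein, was the more abundant at 963 and 538, against 9.78 and 9.89. Pcna, the replication clamp, stood at 205 and 146, against 41.2 and 45.6. The exceptions on the G2 list were Pttg1 (securin), at 24.9 and 37.6 against 34.3 and 29.7, Ube2s, at 0 and 6.26 against 5.73 and 5.84, and Mybl2, with 1 UMI in the cycling barcodes of both libraries together. Heterozygote 1 lay above heterozygote 2 in the cycling level of each of the first 4 genes.

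Outside the cell cycle lists 193 genes were higher in cycling barcodes, 1.42% of 13554 tested, and 89 were lower, 0.657% (edgeR, adjusted p under 0.05). With the cell cycle lists included, higher calls made up 2.14% and lower calls 0.651% of all 13671 genes, 2.79% together. Of the 193, 181 were also higher against non-cycling barcodes drawn to the same mix of clusters and a like depth, where 3.12% of genes were called higher and 1.00% lower. Of the 89, 62 were also lower there. Many of the higher genes vary with the cell cycle too and so follow from the choice of barcodes, and those named next are described without a p. The 10 higher genes with the largest differences were Cdkn3, Lockd, Cenpw, Mns1, Incenp, Cip2a, Cenpu, Slfn9, Cenph and Atad5. Cenpw, Cenpu and Cenph encode inner kinetochore proteins, Incenp the scaffold of the chromosomal passenger complex, and Atad5 the unloader of PCNA. Cdkn3 stood at 94.8 and 56.3 CPM in cycling barcodes, against 0.205 and 0.294 in the non-cycling (a log2 difference of 7.90). Lockd, a noncoding RNA beside Cdkn1b, stood at 160 and 86.4, against 0.778 and 1.01 (6.82). Cycling and non-cycling levels did not overlap for either.

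Among 25 D cyclins, CDK inhibitors and pocket proteins 13 were positive in both libraries and 7 negative in both, with a median of 0.59. The members described next vary with the cell cycle themselves. They are Cdkn3, a phosphatase that acts on cyclin-dependent kinases, the repressors E2f7 and E2f8, and the INK4 inhibitors Cdkn2c and Cdkn2d. Cdkn2d stood at 125 and 31.3 CPM in cycling barcodes, against 4.83 and 5.10 (a log2 difference of 3.48). E2f8 stood at 15.0 and 21.3, against 1.10 and 1.20 (3.94). Cdkn1b (p27) stood at 54.9 and 20.03, against 23.2 and 20.4, and Ccnd1 at 24.9 and 25.03, against 27.0 and 29.2, and neither was called. Cdkn1a (p21) stood at 244 and 418, against 253 and 267, and was called against the cluster- and depth-matched barcodes alone (adjusted p = 0.0124). All 10 histone genes were positive in both libraries, led by the linker histone H1f5 at 99.8 and 21.3, against 0.818 and 0.357 (a log2 difference of 6.31). The variant histone H2az1 stood at 1477 and 1208, against 430 and 405 (1.57). Histones belong to the cell cycle lists, so no p is given for them.

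Counts of higher genes in the growth-related lists stand against 2.14% of all genes tested. None of 19 ribosome biogenesis and Myc genes was called by edgeR (3 at an unadjusted p under 0.05, 0 by DESeq2), with a median of -0.08, and Myc stood at 39.9 and 100.1 CPM in cycling barcodes, against 72.3 and 98.5. None of 15 glycolysis genes was called by edgeR (2 at an unadjusted p under 0.05, 0 by DESeq2). Of 20 nucleotide synthesis genes 1 was higher, Dctpp1, which clears altered dCTP, at 59.9 and 55.1, against 17.4 and 17.9 (1.56 ± 0.30, edgeR adjusted p = 1.44e-05). Of 23 cholesterol synthesis genes 3 were higher and none lower, 17 were positive in both libraries, and the median was 0.60. Fdps stood at 99.8 and 33.8, against 25.99 and 18.6 (1.21 ± 0.30, edgeR adjusted p = 0.00265). Cyp51 stood at 94.8 and 63.8, against 37.1 and 34.7 (0.94 ± 0.25, edgeR adjusted p = 0.0103), and Idi1 at 64.8 and 62.6, against 37.4 and 28.7 (0.92 ± 0.26, edgeR adjusted p = 0.0208). Of 18 p53 targets and apoptosis genes 1 was higher, Trp53 itself, at 54.9 and 51.3, against 21.9 and 25.4 (1.00 ± 0.29, edgeR adjusted p = 0.0242). The calls of Fdps, Cyp51, Idi1 and Trp53 were lost with DESeq2 (adjusted p = 0.171, 0.375, 0.779 and 0.614) and without the library block.

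**Figure D5:**
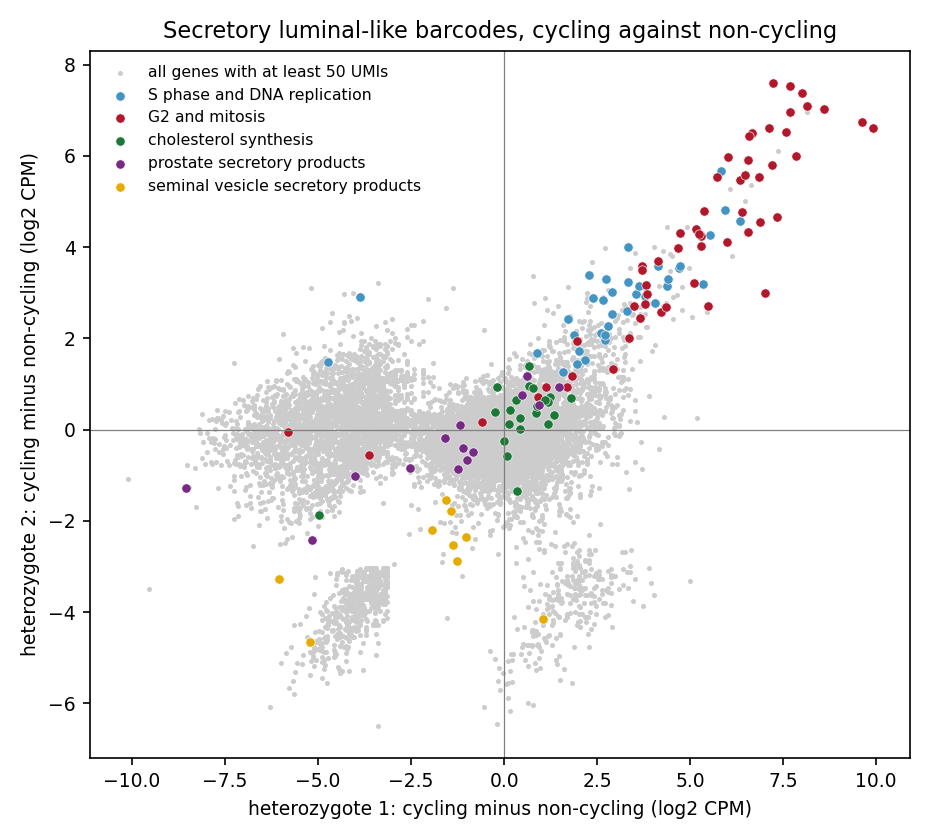
Log2 difference in CPM between cycling and non-cycling secretory luminal-like barcodes in heterozygote 1 (x axis) and heterozygote 2 (y axis), for genes with at least 50 UMIs in the fit, with 5 lists coloured. The G2 and mitosis list (median 5.55) and the S phase list (median 3.29) lie at the upper right and the seminal vesicle products (median -2.04) at the lower left. The separate grey clouds at the left and bottom are mostly genes with no UMI in the cycling barcodes of that library.

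The genes with the largest lower calls in cycling barcodes included several secreted products. The 10 with the largest differences were Sprr2f, Msmb, Col6a6, Spinkl, Defb50, Igfbp5, Gm26917, Svs6, Svs4 and Svs5. Of 9 seminal vesicle products 6 were lower, with a list median of -2.04, and of 14 prostate secretory products 3 were lower, with a median of -0.66. Svs5 stood at 549 and 1106 CPM in cycling barcodes, against 1943 and 4529 in the non-cycling (-2.04 ± 0.33, edgeR adjusted p = 1.15e-07). Svs4 stood at 334 and 174, against 736 and 1145 (-2.11 ± 0.27, edgeR adjusted p = 2.12e-12). Genes of the RNA shared between droplets were read as a group. Of 69 tested genes above 0.1% of all UMIs in the barcodes that held fewer than 500 genes, 15 were lower and none higher, 65 were negative in both libraries, and the median was -0.43. As a share of all UMIs, the shared genes went opposite ways in the libraries, with 40.1% in cycling barcodes of heterozygote 1, against 30.7% in its non-cycling ones, and 28.0% against 32.8% in heterozygote 2. The part of this shared RNA in the lower calls was not tested. Against cluster- and depth-matched barcodes 4 of the 9 seminal vesicle products were still lower. The call of Svs6 (edgeR adjusted p = 0.0121) was lost there and with DESeq2 (0.705).

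Msmb (beta-microseminoprotein) stood at 19.95 and 3471 CPM in cycling barcodes, against 6933 and 7488 in the non-cycling (-3.46 ± 0.50, edgeR adjusted p = 9.66e-10). Defb50, a beta-defensin, stood at 768 and 6964, against 11267 and 12617 (-2.40 ± 0.51, edgeR adjusted p = 0.000154). Both mark the cluster with 0 and 3 cycling barcodes, and with the clusters matched their differences were -1.47 and -1.07. Neither was called by DESeq2 (adjusted p = 0.825 for Msmb and 0.518 for Defb50). Col6a6 and Gm26917 lead the cluster with no cycling barcode. Col6a6 stood at 15.0 and 38.8, against 107 and 268 (-2.90 ± 0.30), and at -1.75 with clusters matched. Sprr2f had 0 and 6 UMIs in cycling barcodes, or 0 and 7.51 CPM, against 77.7 and 76.4 (-3.80 ± 0.43, edgeR adjusted p = 4.63e-16), and stayed at -3.22 with clusters matched. Igfbp5, an IGF-binding protein, stood at 9.98 and 22.5, against 54.5 and 98.7 (-2.28 ± 0.33, edgeR adjusted p = 1.36e-09).

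Counts of lower genes in the lists below stand against 0.651% of all genes tested. Esr1, an estrogen receptor, stood at 79.8 and 91.4 CPM in cycling barcodes, against 81.9 and 82.3 in the non-cycling (-0.01 ± 0.24, edgeR adjusted p = 1.000), and was not called. Of 16 androgen response genes 1 was lower, the protease Tmprss2, at 94.8 and 97.6, against 137 and 170 (-0.81 ± 0.24, edgeR adjusted p = 0.0262). Pbsn stood at 8670 and 13876, against 18597 and 22628 (-1.01 ± 0.53, edgeR adjusted p = 0.558), lower in both libraries with a wide error. Of 15 growth factor genes tested Egf was lower, at 105 and 202, against 222 and 303 (-0.85 ± 0.23, edgeR adjusted p = 0.0105), and Igfbp7 was the other lower gene. DESeq2 called neither of these, nor Tmprss2 (adjusted p = 0.169 for Egf, 0.951 for Igfbp7 and 0.640 for Tmprss2). Of 18 immediate early and stress genes 3 were lower, Fos, Hspb1 and Hspa1a. Fos stood at 130 and 133, against 447 and 190 (-1.12 ± 0.23, edgeR adjusted p = 0.000146), and the difference was held by heterozygote 1 more than by heterozygote 2.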

How the data were processed

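Droplet libraries of mouse prostate, 1 from Srd5a2 knockout and 2 from heterozygotes, were analysed, grouped by the genotype labels. The deposited matrices hold raw UMI counts. The submitters' processing notes name Cell Ranger 3.1.0 and mm10. How the authors called cells is not given in the labels. The cycling rule, lists and tests were chosen with earlier results of these data known. Non-cycling barcodes were clustered (scanpy 1.11.5, igraph 0.11.9, Leiden resolution 1.0, 2000 variable genes, 30 components, 15 neighbours) without cell cycle lists, mitochondrial genes and 70 genes above 0.1% of all UMIs in the barcodes that held fewer than 500 genes. A cluster was named from at least 3 markers, each at a log2 fold of 1.0 and in 25% of cells. A cluster that met this was still left unnamed when its leading genes held more markers of other lists than of its own. So was one whose leading genes held none of its markers, at low depth or with a share over 0.9 from 1 library. The cluster led by Rgs5, with 5 smooth muscle and 4 pericyte markers, stayed unnamed in this way. Doublets were scored with scrublet, whose automatic threshold called 0% in each library, so the highest scores were called, up to a share set by the number of barcodes (8.45%, 4.51% and 8.74%).

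UMIs were summed per library and tested with edgeR 4.0.16 (R 4.3.3; filterByExpr, TMM, quasi-likelihood fit, Benjamini-Hochberg adjustment over all genes tested, threshold 0.05). The genotype fit and the paired fit of cycling and non-cycling barcodes each leave 1 residual degree of freedom. A small p in the paired fit does not mean that the libraries agreed in size. Msmb, for 1, differed by -8.56 (log2) in heterozygote 1 and by -1.27 in heterozygote 2. P-values measure the spread between these libraries, which may be technical. In the genotype fit this spread comes from the heterozygote libraries alone, and variation between knockout libraries is not measured. The library was a block between cycling and non-cycling barcodes, where both sums come from the same library. CPM use plain totals. Named genes are members of the lists and the 10 largest differences per direction with at least 50 UMIs and the same sign in every library. On simulated counts with 200 genes changed 4-fold, 44% were recovered with 1 false call in the paired fit (13588 genes) and 71.5% with 8 false calls in the genotype fit (16344 genes). DESeq2 1.42.0, other scalings, filters, rules and reference barcodes were tried as alternatives.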

Additional observations from a re-analysis of the deposited data

How the results depend on the processing

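The share of cycling barcodes was 0.573 percentage points lower in the knockout than the heterozygote mean over all lineages (a difference of -0.573) and -0.755 in secretory luminal-like barcodes. The first was -0.635 with 3 or more UMIs, -0.463 with 6 or more, -0.686 in barcodes of 2500 UMIs or more, -0.634 with the stricter barcode filter and -0.435 over supported barcodes alone, an alternative chosen after seeing the data, as were the matched reference and the removal of cycling barcodes. It ranged from -0.592 to -0.555 without each heterozygote. The share of barcodes with any UMI of the 5 genes differed by -3.19 points, and by -1.19 once barcodes were thinned to 2500 UMIs. In secretory luminal-like barcodes it differed by -0.18 and, thinned, by -1.25 (2.41% in the knockout, 3.79% in heterozygote 1, 3.53% in heterozygote 2). Of the 5 rule genes lower in the knockout there, 4 were called, and 0 without cycling barcodes, where Top2a turned to 0.069. Genes lower in cycling barcodes numbered 89, 29 with DESeq2 and 43 with no replicate block. Genes higher stayed within 1.5 times of 292 in every setting run. In basal-like barcodes, where edgeR called 0 genes, median-ratio scaling called 30 higher and 26 lower, DESeq2 18 and 19, no count filter 19 and 6, and doublets left out 90 and 112. In the paired fit, leaving out a library would leave 1 pair, so it was not run. The knockout could not enter the paired fit, because it held 0 cycling secretory luminal-like barcodes, against a minimum of 10 per library. The low number of cycling barcodes, 6 in the knockout, limits the precision, and the depth limits which of them the rule can find.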

Other observations

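Top2a made up most of the rule-gene UMIs found outside cycling barcodes, 61.1% in the knockout, 65.5% in heterozygote 1 and 58.9% in heterozygote 2 over all lineages. Mki67 came next in the knockout, at 22.3%, and in heterozygote 1, at 12.5%, while Ube2c did in heterozygote 2, at 14.0%. Cenpf was the rule gene least found outside cycling barcodes, with 9 UMIs in 8 knockout barcodes, 11 UMIs in 10 barcodes of heterozygote 1 and 57 UMIs in 51 barcodes of heterozygote 2. Among lineages with at least 50 barcodes in the knockout, the 5 genes stood highest in macrophage-like barcodes, at 48.1 CPM, and next in T or NK-like barcodes, at 46.8 CPM, against 10.3 CPM in secretory luminal-like barcodes of the same library. No macrophage-like knockout barcode met the rule, and 2 of 111 did in heterozygote 2.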
